A study of Mus musculus with 3 samples.

Results

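RNA of the cell cycle was followed in single macrophages and dendritic cells (DCs) of the mouse heart through 49 genes, taken by symbol from the gene lists of all 3 libraries, where each was found among 27998 shared genes. Of these, 20 are genes of S phase, when DNA is copied, and 25 are genes of G2 and mitosis (G2/M), when the copies are checked and divided. The other 4, Stmn1, Tubb5, Hmgb2 and Cks2, are cell cycle genes that many resting cells also express, and they were kept out of both sums. The libraries are droplet-based 3′ libraries (10x Chromium, v2 chemistry) of cells sorted from hearts of C57BL/6 mice aged 8 to 12 weeks. The steady-state library holds macrophages of uninjured hearts and the day 11 library holds macrophages taken 11 days after myocardial infarction, both from mice of the genotype Cx3cr1CreER-YFP/+:R26Td/+. The Cx3cr1 promoter drives the CreER of that genotype, and 1 copy of Cx3cr1 is replaced by it. The macrophage and DC library holds macrophages, called the wild-type macrophages here, and DCs of uninjured wild-type hearts. In all of them hearts were digested in the presence of flavopiridol, a kinase inhibitor that blocks transcription. The sort took live cells that were CD45+CD64+CD11b+ for macrophages, and for DCs those that were CD45+CD64-CD11c+ and showed MHC class II at an intermediate or high level. Each group is 1 library, the number of hearts in it is not stated in the labels, and no difference here has a replicate error. Intervals are exact 95% intervals that cover counting error only.

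A cell that commits to division switches on the E2F transcription factors, which raise the genes for copying DNA, among them the Mcm helicase, the clamp Pcna and the enzymes that make nucleotides. Later a second wave follows, bound in promoters through CCAAT boxes and cell cycle homology regions (CHR), which raises Cdk1, its cyclins and the genes of the spindle and the kinetochore. Heart macrophages are known to renew locally, the Timd4+ resident cells most independently of blood, whereas Ccr2 marks monocytes and the macrophages that come from them, and Gpnmb is a lysosomal glycoprotein of lipid-laden and injury-associated macrophages.

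Promoters are shown for 3 S genes and 3 G2/M genes because the letters that set the waves apart can be read in them. Each line is the 150 bases before the start of transcription, 5′ to 3′ on the strand of the gene, from RefSeq on GRCm38.p6. The windows are Mcm5 at chr8:75109359-75109508 (plus strand), Mcm6 at chr1:128359706-128359855 (minus strand), Cdc6 at chr11:98908001-98908150 (plus strand), Cdk1 at chr10:69352913-69353062 (minus strand), Ube2c at chr2:164769779-164769928 (plus strand) and Top2a at chr11:99024190-99024339 (minus strand). Starts differ between annotations. GENCODE starts Cdc6 at chr11:98907801, so by that annotation its window lies inside the gene, and the windows of Cdk1 and Ube2c lie partly inside. Capitals mark matches on either strand to the E2F letters TTTCCCGC or TTTGGCGC, to the CHR letters TTTGAA and to CCAAT.
Mcm5: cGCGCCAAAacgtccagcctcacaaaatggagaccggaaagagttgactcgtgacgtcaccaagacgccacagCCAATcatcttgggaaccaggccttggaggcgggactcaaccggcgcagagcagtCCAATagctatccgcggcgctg
Mcm6: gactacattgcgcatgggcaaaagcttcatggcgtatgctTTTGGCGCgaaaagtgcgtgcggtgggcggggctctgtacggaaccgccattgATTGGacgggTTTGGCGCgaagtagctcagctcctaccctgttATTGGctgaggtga
Cdc6: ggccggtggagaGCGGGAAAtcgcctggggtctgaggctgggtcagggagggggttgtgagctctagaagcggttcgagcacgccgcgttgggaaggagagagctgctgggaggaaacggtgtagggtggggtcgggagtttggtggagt
Cdk1: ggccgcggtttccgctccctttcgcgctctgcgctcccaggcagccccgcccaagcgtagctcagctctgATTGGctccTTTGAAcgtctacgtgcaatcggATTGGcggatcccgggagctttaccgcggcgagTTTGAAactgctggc
Ube2c: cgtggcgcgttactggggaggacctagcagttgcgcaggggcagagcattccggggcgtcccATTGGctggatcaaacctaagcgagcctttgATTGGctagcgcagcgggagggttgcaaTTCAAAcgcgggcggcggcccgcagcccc
Top2a: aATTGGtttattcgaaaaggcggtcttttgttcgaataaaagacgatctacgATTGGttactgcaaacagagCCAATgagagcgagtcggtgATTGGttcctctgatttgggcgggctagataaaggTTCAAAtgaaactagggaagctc
No marked matches of different motifs overlap in the members' windows.

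Windows from 250 bases before to 50 bases after the start were found for 17 of 20 S members, 22 of 25 G2/M members and 3 of the other 4. Mcm4, Gins2, Ccne2, Aurkb, Ccna2, Tpx2 and Stmn1 were not among them. The E2F letters stood in 6 of 17 S promoters and in 0 of 22 G2/M promoters, against 1.80% of 27025 genes. The CHR letters stood in 1 S promoter and in 17 of 22 G2/M promoters, against 20.2% of all genes. CCAAT was found in 10 S and 20 G2/M promoters, against 41.1%, and every G2/M promoter with the CHR letters also held CCAAT, a pair found in 7.97% of all genes. A match describes letters and is not a measured binding site. Among other genes of the same processes, the CHR letters stood in 18 of 24 further mitosis genes and 6 of 22 further replication genes, and the E2F letters in 3 and 5.

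The libraries held 1806 (steady state), 4697 (day 11) and 1780 (macrophages and DCs) barcodes with 23711707, 45177529 and 14388327 unique molecular identifiers (UMIs, each a counted RNA molecule). Cells were placed by RNA, as macrophages when at least 6 UMIs came from C1qa, C1qb and C1qc and as DCs when C1q was low and at least 2 UMIs came from DC genes. This gave 1733, 4228 and 684 macrophages, and 754 DCs in the macrophage and DC library beside 71 at day 11. Their median depth was 10782, 8189.5 and 5613.5 UMIs in macrophages and 10305 in the DCs. For every share of cells, each cell was therefore thinned to 3000 UMIs, and shallower cells were left out (0, 84 and 172 of all kinds). A cell was given an S call when at least 4 of the 20 S members had a UMI and a G2/M call when at least 4 of the 25 G2/M members had one. A call is a count of detected genes and does not measure DNA content or division. The 76 cells that passed the monocyte gate served as a reference for cells out of the cycle, which was assumed and not measured. Of these, 0 had a call, which allows a share of up to 4.74% by the exact interval. Only 3 of them came from the steady-state library, beside 43 at day 11 and 30 in the macrophage and DC library. The reference therefore says little about the steady-state library. The libraries share 8, 7 and 11 barcodes by pair.

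G2/M members were detected in large sets in some cells and hardly at all in most, whereas the number of S members per cell thinned out evenly. At steady state 1031 of 1733 macrophages had none of the 25 G2/M members, 26 had exactly 3, 18 had 4, 12 had 7, 16 had 10 and 11 had 13, with a highest count of 21. At day 11 the cells with 3, 4, 7, 10 and 13 G2/M members numbered 24, 8, 13, 11 and 13. Beyond the call limit of 4 the G2/M distribution was therefore close to flat over a wide range. S members had no such shelf, with 115, 55, 10 and 6 steady-state macrophages at 3, 4, 7 and 10 S members and 165, 73, 23 and 16 at day 11. More cells lay near the S limit than near the G2/M limit, and an S call depends more on where the limit is set.

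**Figure D1:**
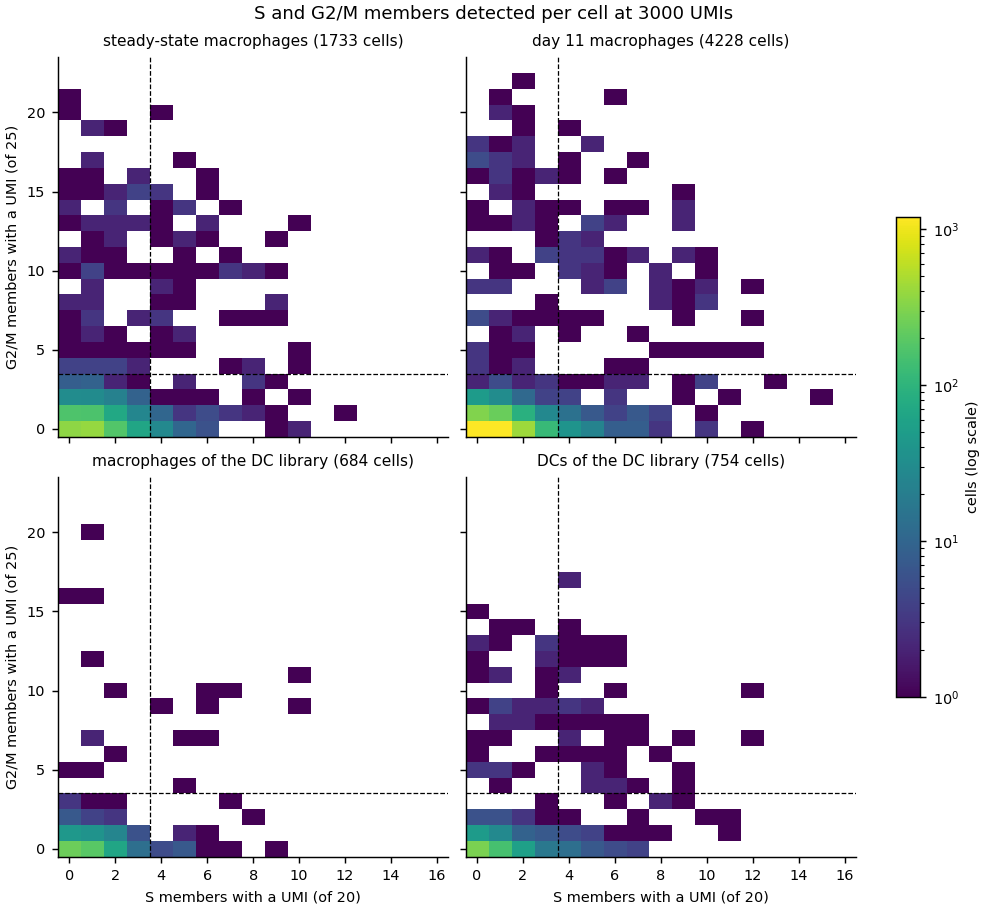
Number of S members (horizontal axis, of 20) and of G2/M members (vertical axis, of 25) with a UMI in each cell thinned to 3000 UMIs, in 1 panel per group, with the number of cells on a log colour scale and lines at the call limit of 4. Cells with 8 or more G2/M members number 90 at steady state, 124 at day 11, 11 among wild-type macrophages and 53 among DCs, and some of them hold many S members too while others hold few.

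The share of cells with any call was highest in DCs and, among macrophages, in the steady-state library. It was 17.9% (15.2 to 20.8) in DCs (135 of 754 cells), 12.5% (11.00 to 14.2) in steady-state macrophages (217 of 1733 cells), 7.21% (6.45 to 8.04) at day 11 (305 of 4228 cells) and 5.70% (4.09 to 7.71) in the wild-type macrophages (39 of 684 cells). The day 11 and the wild-type macrophages had overlapping intervals, and both lay below the steady-state library. The ratio of day 11 to steady state was 0.576 (0.482 to 0.689), and 0.558 over 20 draws of the thinning, with a range of 0.522 to 0.617. The macrophages sequenced with the DCs, also from uninjured hearts, had 0.455 (0.315 to 0.643) of the steady-state share, and 0.465 over 20 draws of the thinning, with a range of 0.402 to 0.541. The intervals of these ratios overlap, so the uninjured libraries differed from each other by an amount like that between day 11 and the first of them, and infarction cannot be told apart from library in these values.

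All 3 kinds of call were seen in every group. At steady state 83 macrophages had S only, 55 both and 79 G2/M only, at day 11 145, 79 and 81, in the wild-type macrophages 20, 9 and 10, and in the DCs 50, 42 and 43. The G2/M call alone, the one with the clearer limit, was made in 7.73% (6.52 to 9.09) of steady-state macrophages, 3.78% (3.23 to 4.40) at day 11, 2.78% (1.68 to 4.30) of wild-type macrophages and 11.3% (9.10 to 13.8) of DCs. Mki67, the gene of the proliferation antigen Ki-67, was detected in 6.69, 3.86, 1.61 and 5.57% of the same thinned cells, and in 15.3, 8.09, 4.09 and 13.7% at full depth. The steady-state library led the macrophages by each of these measures. Median depth had the same order in macrophages, 10782, 8189.5 and 5613.5 UMIs, so detection at full depth is not a comparison free of depth. The share in DCs was 3.14 (2.18 to 4.61) times that in the macrophages of their own library, and 3.03 over 20 draws of the thinning, with a range of 2.42 to 3.52. Among them, cells on the side of conventional type 1 DCs (cDC1) had a call in 19.5% (16.1 to 23.2) and the other DCs in 14.6% (10.46 to 19.7), with overlapping intervals. The 71 DCs of the day 11 library had 5 cells with a call, 7.04% (2.33 to 15.7). Thinned to 5000 UMIs, which leaves out more of the shallow macrophages, the log2 ratio of DCs to macrophages was 0.81 instead of 1.65, and that of wild-type to steady-state macrophages was -0.62 instead of -1.14.

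**Figure D2:**
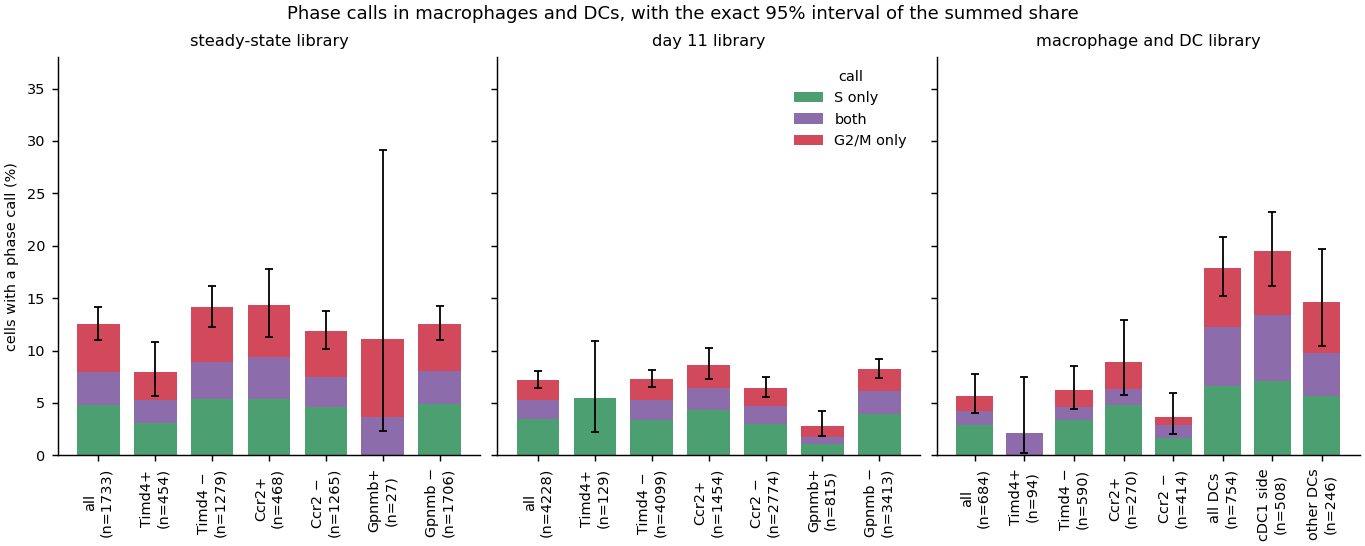
Percent of cells with an S call only, both calls or a G2/M call only (vertical axis) in each group of cells thinned to 3000 UMIs, with exact 95% intervals of the share with any call. DCs reach 17.9%, steady-state macrophages 12.5%, day 11 macrophages 7.21% and the wild-type macrophages 5.70%.

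The balance of both waves also differed between groups. In CPM (UMIs of the genes per 1000000 UMIs of all cells of the group, at full depth), the 20 S members summed to 571 at steady state, 439 at day 11, 432 in wild-type macrophages and 654 in DCs. The 25 G2/M members summed to 668, 435, 348 and 754 CPM in the same order. The ratio of S to G2/M UMIs was 0.854 (0.834 to 0.875) at steady state, 1.01 (0.988 to 1.03) at day 11, 1.24 (1.16 to 1.33) in wild-type macrophages and 0.868 (0.836 to 0.900) in DCs. Among macrophages, the groups with a smaller share of called cells had a larger S to G2/M ratio. Pcna, Dut and Slbp are expressed in many uncalled cells, and without them the log2 ratio in wild-type macrophages was -0.54 instead of 0.31 and that of day 11 -0.72 instead of 0.01, still above steady state at -0.96.

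Among the S members, the genes that load and form the replicative helicase were lower at day 11 than at steady state. They were higher in DCs than in the macrophages beside them. Mcm5, a helicase subunit with E2F letters in its promoter, was at 28.4 CPM in steady-state macrophages, 19.5 at day 11, 20.2 in the wild-type macrophages and 37.3 in the DCs. Mcm6, another subunit with those letters, was at 42.04 CPM in steady-state macrophages, 32.9 at day 11, 32.3 in the wild-type macrophages and 48.4 in the DCs. Both were highest in DCs and then in steady-state macrophages, and within 1 CPM of each other in the remaining groups. Over Mcm2 to Mcm7 the ratio of day 11 to steady-state CPM ranged from 0.686 to 0.824 and that of DCs to the macrophages beside them from 1.08 to 1.99. The loading factors Cdc6 and Cdt1 had day 11 ratios of 0.573 (95% interval 0.428 to 0.768) and 0.808 (95% interval 0.695 to 0.941), and Gins2, a part of the active helicase, 0.743 (95% interval 0.657 to 0.841). Cdc6 had few counts, and its ratio of 5.34 (95% interval 1.34 to 46.4) between cDC1-side and other DCs rests on 27 against 2 UMIs.

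Genes of nucleotide supply were higher in DCs, and Rrm2 and Dut had the highest DC to macrophage ratios of the S members after Ccne1. Rrm2, the cell cycle subunit of ribonucleotide reductase, was at 15.8 CPM in steady-state macrophages, 15.6 at day 11, 11.8 in the wild-type macrophages and 46.02 in the DCs, a DC to macrophage ratio of 3.89 (95% interval 2.91 to 5.31). Dut, which removes dUTP, was at 32.3 CPM in steady-state macrophages, 27.8 at day 11, 25.01 in the wild-type macrophages and 84.2 in the DCs, a ratio of 3.37 (95% interval 2.75 to 4.16). Tk1 and Tyms, the makers of thymidine nucleotides, had ratios of 2.75 and 2.59, and Rrm1, the partner of Rrm2, 1.77. All 5 were higher in DCs, to unequal degrees. Between day 11 and steady state Rrm2 had a ratio of 0.989 (95% interval 0.868 to 1.13) and Tk1 0.707 (95% interval 0.629 to 0.795). Rrm2 and Ccne1 (1.02) were the S members nearest to or above 1 in that comparison.

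Pcna and Slbp differed little between DCs and macrophages. Pcna, the sliding clamp of DNA polymerase, was at 92.05 CPM in steady-state macrophages, 72.8 at day 11, 72.5 in the wild-type macrophages and 79.02 in the DCs. Slbp, which binds histone mRNA, was at 104 CPM in steady-state macrophages, 74.2 at day 11, 94.8 in the wild-type macrophages and 85.2 in the DCs. Slbp and E2f1, the transcription factor of the first wave, were the only S members lower in DCs than in the macrophages beside them, with ratios of 0.899 (95% interval 0.795 to 1.02) and 0.780 (95% interval 0.594 to 1.03). Ccne1, a cyclin that opens S phase, was at 1.88, 1.91, 0.682 and 6.08 CPM in the same order, and its DC ratio of 8.91 (95% interval 2.88 to 44.7) rests on 3 macrophage UMIs. Uhrf1, which copies DNA methylation, was among the S members lowest at day 11, 0.545 (95% interval 0.452 to 0.658).

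Among the G2/M members, Top2a had the lowest ratio of wild-type to steady-state macrophages and the highest of DCs to macrophages. Top2a, the topoisomerase that untangles copied chromosomes, was at 51.2 CPM in steady-state macrophages, 30.8 at day 11, 16.1 in the wild-type macrophages and 63.02 in the DCs. Mki67 was at 39.1 CPM in steady-state macrophages, 23.3 at day 11, 13.2 in the wild-type macrophages and 30.02 in the DCs. For both, the wild-type macrophages were lowest, with ratios to steady state of 0.315 (95% interval 0.245 to 0.401) and 0.338 (95% interval 0.254 to 0.441), and day 11 lay between, 0.601 and 0.596. Top2a in DCs was 3.90 (95% interval 3.04 to 5.08) times the level of the macrophages in the same library.

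The genes that drive mitosis were lower at day 11 than at steady state too. Cdk1, the kinase that starts mitosis, with CHR letters and CCAAT in its promoter, was at 38.05 CPM in steady-state macrophages, 23.96 at day 11, 14.1 in the wild-type macrophages and 42.8 in the DCs. Its cyclins Ccna2, Ccnb1 and Ccnb2 were lower at day 11 by ratios of 0.650 to 0.822. Ube2c, which helps the anaphase-promoting complex destroy cyclins, was at 54.7 CPM in steady-state macrophages, 37.5 at day 11, 25.2 in the wild-type macrophages and 85.4 in the DCs, and Cdc20, the activator of that complex, was at 23.54, 15.3 and 13.4 CPM in the macrophages and 21.3 in the DCs. The order DCs, steady state, day 11, wild-type macrophages held for Cdk1 and Ube2c, while Cdc20 was highest in steady-state macrophages. Birc5 (survivin), Cdca8 and Aurkb, members of the passenger complex that corrects chromosome attachment, had day 11 ratios of 0.622, 0.732 and 0.554 and DC ratios of 2.41, 2.30 and 2.03. Cdca3, a trigger of mitotic entry, had 0.736 and 2.57.

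Kinetochore and spindle genes were lower at day 11 than at steady state without exception, and day 11 ratios here are to steady state. Over the wild-type macrophages the 25 G2/M members had a median day 11 ratio of 1.27, with 9 intervals above 1 and 1 below. Cenpa, the histone of the centromere, was at 55.4 CPM in steady-state macrophages, 45.2 at day 11, 41.4 in the wild-type macrophages and 60.7 in the DCs, and its day 11 ratio of 0.815 (95% interval 0.758 to 0.877) was near the top of the range. Cenpe, Cenpf, Bub1 and Bub1b, which join chromosomes to the spindle and check the joint, ranged from 0.506 to 0.764. Hmmr, Tpx2, Nusap1, Prc1, Kif11, Plk1 and Aurka, which build the spindle, ranged from 0.521 to 0.774. Kif23, a motor that closes the cell at the end of division, was the lowest member of all. It was at 35.7 CPM in steady-state macrophages, 14.8 at day 11, 16.1 in the wild-type macrophages and 27.04 in the DCs, and its day 11 ratio was 0.413 (95% interval 0.371 to 0.460). In cells with no call from the other members Kif23 was at 17.3 CPM at steady state (79 thinned UMIs) and 4.33 at day 11 (51), while in cells with a G2/M call only it was at 262 and 275. The libraries thus differed in Kif23 among uncalled cells and had near equal levels in cells with a G2/M call only.

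The 4 members kept out of both sums were less bound to called cells than G2/M members, and called cells held a median of 51.7% of their thinned UMIs at steady state. Hmgb2, a chromatin protein, was at 316 CPM in steady-state macrophages, 258 at day 11, 253 in the wild-type macrophages and 681 in the DCs. Stmn1, which takes microtubules apart, was at 269 CPM in steady-state macrophages, 179 at day 11, 152 in the wild-type macrophages and 329 in the DCs. Tubb5, a tubulin, was at 511 CPM in steady-state macrophages, 379 at day 11, 386 in the wild-type macrophages and 672 in the DCs, and Cks2, a partner of Cdk1, at 58.04, 45.4 and 51.8 CPM in macrophages and 67.9 in DCs. All 4 were lower at day 11 than at steady state, with a summed ratio of 0.747 (0.735 to 0.759). In DCs they were higher than in the macrophages beside them, 2.08 (2.004 to 2.15).

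**Figure D3:**
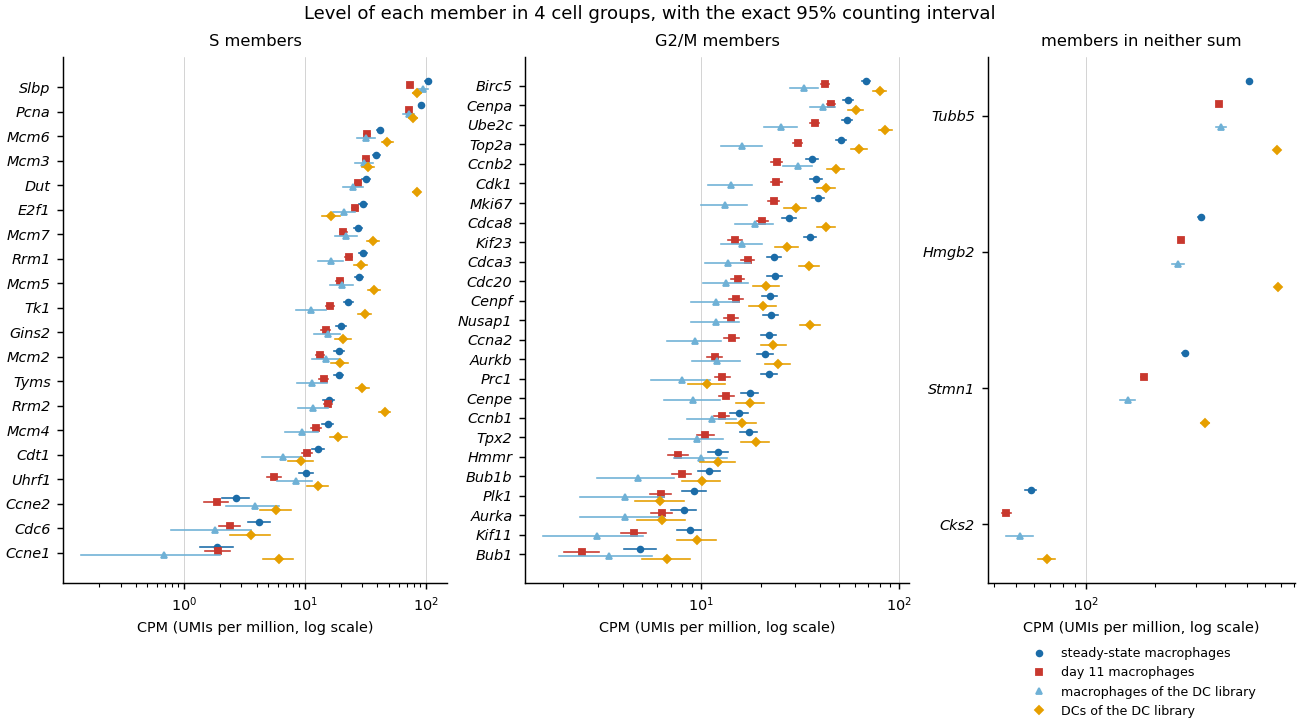
CPM of every member (log axis) in the 4 groups, with exact 95% intervals, S members and G2/M members in separate panels. Most members lie highest in DCs or steady-state macrophages, as Top2a does at 63.02 and 51.2 CPM against 30.8 at day 11 and 16.1 in wild-type macrophages.

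As whole lists, G2/M members differed more between day 11 and steady state than S members. The summed CPM ratio was 0.651 (0.637 to 0.665) for the 25 G2/M members and 0.769 (0.752 to 0.787) for the 20 S members. All 25 G2/M members and 19 of 20 S members had a ratio below 1, against 60.5% of the 5321 genes that reached 20 CPM in 1 of the libraries or both. The median log2 ratio over all members was -0.62 for G2/M and -0.40 for S, beside -0.06 for all genes, and 16 G2/M and 11 S members passed that CPM limit. Here and below, counts of members cover all of them at any CPM, while shares of all genes cover only genes that passed, so the members that passed are counted beside each 2-fold count. A ratio of at least 2-fold lower was reached by 1 member, Kif23, which passed, where 2.54% of all genes reached it. The differences were therefore small per gene and shared in direction.

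With the wild-type macrophages as reference, G2/M members were higher at day 11 and S members near equal. The summed ratio of day 11 over these cells was 1.25 (1.18 to 1.32) for G2/M members and 1.02 (0.969 to 1.07) for S members, while 28.7% of all genes were below 1 and their median log2 ratio was 0.18. Over the steady-state library the wild-type macrophages had 0.521 (0.494 to 0.550) for G2/M and 0.757 (0.721 to 0.794) for S members. All 25 G2/M and 19 of 20 S members were below 1 there, beside 76.2% of all genes, whose median log2 ratio was -0.26. At least 2-fold lower were 11 G2/M and 3 S members, among them 8 of the 16 G2/M and 1 of the 11 S members that passed, against 5.36% of all genes. These uninjured libraries differ in genotype, in sort and in depth. The summed macrophage markers were at 22547 CPM at steady state, 21983.5 at day 11 and 16229 in the wild-type macrophages, and DC markers at 195, 164 and 349 CPM, and their part in the result was not tested.

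DCs carried more RNA of both waves than the macrophages sequenced beside them. The summed ratio was 2.17 (2.05 to 2.29) for G2/M and 1.52 (1.44 to 1.598) for S members. All 25 G2/M and 18 of 20 S members were above 1, where 59.9% of all genes were below 1. At least 2-fold higher were 12 G2/M and 5 S members, among them 10 of the 15 G2/M and 4 of the 13 S members that passed, against 5.35% of all genes. Against steady-state macrophages the DCs stood closer, with 654 against 571 CPM of S and 754 against 668 CPM of G2/M members. Between the cDC1 side, which Naaa alone can fill, and the other DCs the sums differed little. The ratios were 1.17 (1.10 to 1.25) for S and 1.05 (0.996 to 1.12) for G2/M members. Macrophage markers summed to 594 CPM in the DCs and DC markers to 2627.

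**Figure D4:**
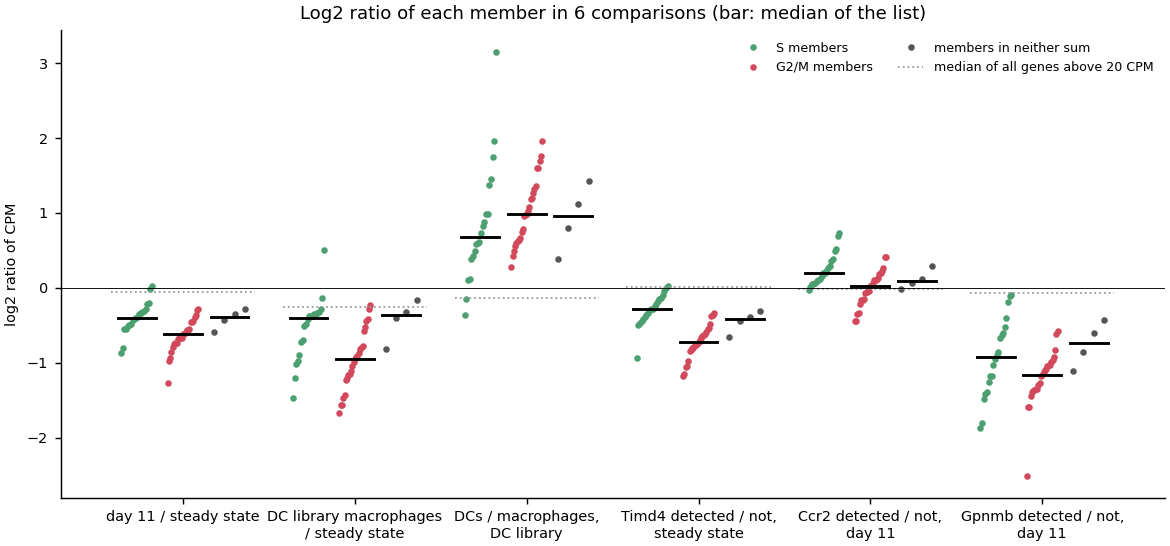
Log2 CPM ratio of each member (points) in the main comparisons, S members beside G2/M members. Bars mark the median of each list, and a dotted line marks the median of all genes. At day 11 over steady state the medians are -0.40 for S and -0.62 for G2/M members, and in DCs over macrophages every G2/M member lies above 0.

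By the RNA of 3 status genes, macrophages were split into cells with and without a UMI after thinning. A cell without a UMI may still express the gene. Shares with a call were redrawn, while sums and member ratios by status rest on the first draw alone. Timd4, a receptor for dying cells, was detected in 26.2% of thinned cells (55.3% at full depth) at steady state, 3.05% of thinned cells (7.76% at full depth) at day 11 and 13.7% of thinned cells (18.7% at full depth) of the wild-type macrophages, with 5.57% of the DCs. Ccr2 was detected in 27.01% of thinned cells (47.4% at full depth), 34.4% of thinned cells (49.5% at full depth) and 39.5% of thinned cells (47.4% at full depth), and in 53.1% of the DCs. Gpnmb was detected in 19.3% of thinned cells (30.7% at full depth) at day 11, in 1.56% at steady state and in 0 of 754 DCs. Only day 11 had enough Gpnmb cells for a comparison.

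At steady state macrophages with Timd4 had fewer calls and less G2/M RNA than those without. A call was made in 7.93% (5.62 to 10.8) of them (36 of 454 cells) and in 14.2% (12.3 to 16.2) of the others (181 of 1279 cells), a ratio of 0.560 (0.380 to 0.805). Redrawing gave a ratio of 0.713 over 20 draws of the thinning, with a range of 0.602 to 0.911, and a share in cells with Timd4 of 8.23 to 11.4%. The first draw was thus lower than all 20 others, and the smaller difference of the redraws is the better guide. Sums and member ratios were not redrawn and use the Timd4 status of that first draw. Summed CPM had a ratio of 0.625 (0.599 to 0.651) for G2/M and 0.854 (0.820 to 0.890) for S members. All 25 G2/M members were below 1, where 48.3% of all genes were. Cdc20, Cenpe, Cenpf and Prc1, 4 of the 17 G2/M members that passed the CPM limit, were at least 2-fold lower, against 0.281% of all genes. Cenpf, which assembles at kinetochores, had a ratio of 0.478 (95% interval 0.367 to 0.615) and Cdc20 0.440 (95% interval 0.338 to 0.566). With 2 UMIs of Timd4 required instead of 1, the log2 ratio of the shares was -1.79, against -0.84 in the first draw and a mean of -0.49 over the redraws.

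At day 11 the few cells with Timd4 had S RNA near that of the cells without it and less G2/M RNA. Of 129 such cells, 7 had a call, all of them S only, and 0 had a G2/M call, which allows a share of up to 2.82% by the exact interval. The S members had a summed ratio of 0.970 (0.890 to 1.05) to the cells without Timd4, and the G2/M members one of 0.263 (0.223 to 0.308). In UMIs, they held 570 of S and 157 of G2/M members, a ratio of 3.63 (3.04 to 4.36). Nusap1, Prc1, Plk1 and Kif11, all spindle genes, had 0 UMIs, and Ube2c was at a ratio of 0.0966 (95% interval 0.0313 to 0.226) and Top2a at 0.118 (95% interval 0.0382 to 0.276). At least 2-fold lower were 17 G2/M and 4 S members with a UMI, among them 6 of the 8 G2/M and 1 of the 9 S members that passed the CPM limit, against 1.06% of all genes. Against steady-state cells with Timd4, the G2/M sum had a ratio of 0.254 (0.215 to 0.298) and the S sum 0.841 (0.767 to 0.920). The share with any call depended on the draw, 0.746 (0.298 to 1.56) in the first and 0.991 over 20 draws of the thinning, with a range of 0.530 to 1.40. The sums and the count of G2/M calls rest on the first draw, and their dependence on it was not tested. In the wild-type macrophages the cells with Timd4 had ratios of 1.47 (1.31 to 1.65) for S and 1.02 (0.878 to 1.18) for G2/M members, although a call was made in 2 of 94 of them (2.13%) and in 37 of 590 cells without Timd4 (6.27%).

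Cells with and without Ccr2 had near equal sums at steady state, differed in S members at day 11 and differed in G2/M members among wild-type macrophages, and these differences between libraries were not tested. At steady state the ratios of the sums were 0.994 (0.957 to 1.03) for S and 0.977 (0.943 to 1.01) for G2/M members, and a call was made in 14.3% (11.3 to 17.8) of cells with Ccr2 and 11.9% (10.1 to 13.8) of those without. The ratio of these shares was 1.21 (0.891 to 1.62), and 1.14 over 20 draws of the thinning, with a range of 0.962 to 1.41. At day 11 cells with Ccr2 had more S RNA, 1.13 (1.10 to 1.17), and a G2/M ratio of 0.996 (0.966 to 1.03). There 19 of 20 S members were above 1 where 53.6% of all genes were below, led by Mcm2 at 1.66 (95% interval 1.39 to 1.97), Mcm5 at 1.44 (95% interval 1.24 to 1.66) and Mcm4 at 1.41 (95% interval 1.18 to 1.69). A call was made in 8.67% (7.27 to 10.2) of them against 6.45% (5.57 to 7.43), a ratio of 1.34 (1.06 to 1.70), and 1.43 over 20 draws of the thinning, with a range of 1.16 to 1.63. In the wild-type macrophages it was the G2/M members that were higher with Ccr2, by 2.14 (1.92 to 2.38), and the S members were at 0.977 (0.892 to 1.07).

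In those wild-type macrophages all 25 G2/M members were above 1, where 58.8% of all genes were below 1, and 15 were at least 2-fold higher, 5 of them among the 8 that passed the CPM limit, against 1.89% of all genes. Ube2c was at a ratio of 4.37 (95% interval 2.73 to 7.24) and Cenpe, a kinetochore motor, at 3.93 (95% interval 1.83 to 9.39). A call was made in 8.89% (5.78 to 12.9) of cells with Ccr2 (24 of 270 cells) and 3.62% (2.04 to 5.91) of those without (15 of 414 cells). Cells with Ccr2 were deeper, with a median of 6680.5 against 5067 UMIs. By call, the median C1q count of thinned cells was 49 UMIs without a call and 37, 38 and 27 with S only, both and G2/M only, and Ccr2 was detected in 38.1, 65, 44.4 and 70% of these cells. In the DCs of the same library Ccr2 was detected in 53.1% and a call made in 17.9%. The part of depth and of DC RNA in the Ccr2 difference was not tested.

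Day 11 macrophages with Gpnmb had less RNA of both waves than those without. A call was made in 2.82% (1.80 to 4.205) of cells with Gpnmb (23 of 815 cells) and 8.26% (7.36 to 9.24) of those without (282 of 3413 cells), a ratio of 0.342 (0.213 to 0.523), and 0.269 over 20 draws of the thinning, with a range of 0.155 to 0.396. Summed CPM had ratios of 0.637 (0.611 to 0.665) for S and 0.456 (0.435 to 0.479) for G2/M members. All 20 S and all 25 G2/M members were below 1, beside 62.6% of all genes, and 19 G2/M and 9 S members were at least 2-fold lower, among them 6 of the 8 G2/M and 1 of the 9 S members that passed the CPM limit, against 1.47% of all genes. Mki67 had a ratio of 0.386 (95% interval 0.306 to 0.482), Rrm2 0.287 (95% interval 0.207 to 0.391) and Mcm5 0.357 (95% interval 0.274 to 0.459), whereas Pcna had 0.880 (95% interval 0.801 to 0.967) and E2f1 0.931 (95% interval 0.796 to 1.09). The lower share was seen with and without Ccr2. With Ccr2, 5 of 126 cells with Gpnmb and 121 of 1328 without had a call (3.97 and 9.11%), and without Ccr2, 18 of 689 and 161 of 2085 (2.61 and 7.72%). The ratio was 0.436 (0.139 to 1.04) with Ccr2, an interval that holds 1, and 0.338 (0.196 to 0.552) without Ccr2. The day 11 sums stayed below steady state when cells with Gpnmb were left out, at 0.732 (0.716 to 0.749) for G2/M and 0.826 (0.807 to 0.846) for S members.

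S members were highest in cells with S only or both calls and G2/M members in cells with both or G2/M only. So that no gene bears on its own call, the call was made for each member from the other members. At steady state the S members summed to 4.74 times their level in uncalled cells in cells with S only, 6.77 with both and 2.12 with G2/M only. The G2/M members were at 1.84, 32.8 and 35.3 times. At day 11 the G2/M folds were 3.002, 67.7 and 93.6, over an uncalled level of 82.4 CPM against 165 at steady state. The median G2/M member had 77.8% of its UMIs in called cells at steady state, 83.8% at day 11 and 93.4% in DCs, and the median S member 39.2, 36.6 and 60.01%. At steady state Slbp was the least confined member with 19.5%, and Hmmr, at the spindle, the most confined G2/M member with 93.2%.

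A list of 27 further replication genes had folds of 4.03, 7.47 and 2.56 at steady state in the same order of calls, and 34 further mitosis genes had 2.53, 19.02 and 15.04. The drivers of G1, the cyclins D and their kinases among them, had 1.38, 1.29 and 0.748, and the inhibitors of the cycle 0.684, 1.67 and 1.52. At steady state the inhibitors were thus lowest with S only, and the G1 drivers with G2/M only. At day 11 the G1 drivers had 2.04, 1.84 and 1.22, above uncalled cells for every call. With G2/M only they were at 0.718 in wild-type macrophages and 0.602 in DCs. Between day 11 and steady state the summed ratio was 0.706 (0.686 to 0.726) for replication genes, with 25 of 27 below 1, and 0.707 (0.690 to 0.724) for mitosis genes, with 33 of 34. Late transcription factors of the cycle had 0.806 (0.727 to 0.894), G1 drivers 0.699 (0.683 to 0.714) and inhibitors 0.903 (0.887 to 0.919). A sum follows its most abundant genes, and the median ratio was 0.902 over the 10 G1 drivers and 0.844 over the 11 inhibitors. The interval lay below 1 for 5 G1 drivers and above 1 for 1, and for 6 and 2 inhibitors. In DCs over macrophages the ratios were 1.61 (1.51 to 1.72) for replication, 1.77 (1.67 to 1.88) for mitosis, 1.15 (1.09 to 1.22) for G1 drivers and 0.690 (0.659 to 0.721) for inhibitors. Among the G1 drivers, Ccnd1 was at 171 CPM at steady state and 99.3 at day 11, a ratio of 0.580 (0.555 to 0.607), and Ccnd2 at 111 and 42.97, 0.386 (0.363 to 0.410), while the kinases Cdk4 and Cdk6, partners of these cyclins, had ratios of 0.926 (0.878 to 0.976) and 1.01 (0.958 to 1.07). Among the inhibitors, Cdkn1a, the p53 target p21, was at 201 and 154 CPM and Btg1, an antiproliferative factor, at 257 and 331, which gave ratios of 0.763 (0.734 to 0.793) and 1.29 (1.25 to 1.33).

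**Figure D5:**
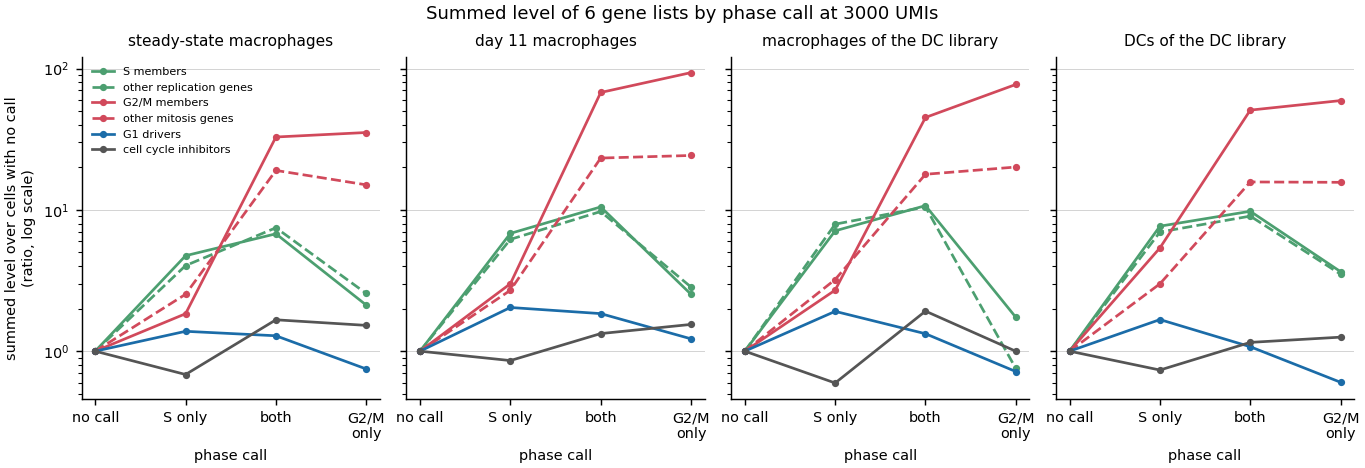
Fold of summed CPM over uncalled cells (log axis) for S members, G2/M members and the further gene lists in cells with S only, both or G2/M only, by group. At steady state G2/M members reach 35.3 times with G2/M only and S members 6.77 times with both calls, while G1 drivers and inhibitors stay within 0.684 to 1.67 times.

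Called cells of day 11 did not carry less of these genes than called cells of steady state. Among cells with a G2/M call (160 at day 11 and 134 at steady state), the G2/M members had a summed ratio of 1.35 (1.32 to 1.39), and among cells with an S call the S members had 1.08 (1.04 to 1.12). The call selects on the same genes, so these are descriptions. The lower day 11 sums thus stood beside fewer called cells and lower levels in uncalled cells. DCs over steady-state macrophages had 0.886 (0.858 to 0.915) for G2/M and 1.06 (1.01 to 1.11) for S members in called cells. Called cells were also deeper before thinning, with a median of 10263.5 UMIs without a call, 13819 with S only, 15720 with both and 16770 with G2/M only at steady state. At day 11 these medians were 8074, 9930, 12203 and 12377, and in DCs 9820, 13970, 16544 and 13141. Of the barcodes removed as doublets, 8 of 26 at steady state, 21 of 176 at day 11 and 6 of 21 in the macrophage gate of the macrophage and DC library had a call (30.8, 11.9 and 28.6%).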

How the data were processed

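RNA of single cells sorted from mouse hearts was counted in 3 libraries, 1 per group. The authors deposited raw UMI counts for each gene and barcode, made with Cell Ranger and STAR on mm10, per the submitters' processing notes. The versions and the rule that called barcodes were not given in the sources used here. Entries for reporter constructs were left out.

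Cells with at least 500 genes and at most 10% mitochondrial UMIs were kept, which removed 39 (steady state), 24 (day 11) and 13 (macrophages and DCs) barcodes. Doublets were scored with Scrublet (scanpy 1.11.5) and the top scores removed at 0.8% per 1000 barcodes, 26, 176 and 25 barcodes. The automatic threshold marked 6, 0 and 2, so it did not work at day 11. Of the 1741, 4497 and 1742 kept cells, 1741, 4413 and 1570 had 3000 UMIs and were thinned once without replacement. Macrophages had at least 6 C1q UMIs. Cells with 5 or fewer were other lineages with at least 3 UMIs of 14 lymphoid, endothelial and fibroblast genes, DCs with at least 2 UMIs of 10 DC genes, or monocytes with at least 2 UMIs of 5 genes, and 1, 58 and 102 cells were not placed. No gate used a cell cycle member.

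CPM came from all UMIs of the gated cells. Ratios carry exact conditional 95% intervals and shares exact Clopper-Pearson ones, which treat UMIs and cells as independent and cover counting error only. With 1 library per group no test was made. A difference was called at 2-fold. Shares of all genes cover genes with at least 20 CPM in either group, while members were counted at any CPM and those past that limit counted beside them. The procedure was tested on simulated data. Members described one by one are those with the highest CPM of each role and those 2-fold different at day 11. Others were named for contrast after their values were seen, and further lists name at most 4 genes by CPM. The members and lists were chosen with earlier results of these data known. Promoters are RefSeq sequences on GRCm38.p6. Alternatives were other limits for calls, gates, thinning and status, equal weight per cell, and another reference. Python 3.11.15, numpy 2.4.6, scipy 1.17.1, pandas 2.3.3 and matplotlib 3.10.9 were used.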

Additional observations from a re-analysis of the deposited data

Results flagged for a closer look

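The S members stood on opposite sides of 1 between macrophages with and without Timd4 in the uninjured libraries. In the macrophage and DC library their summed CPM was 598 with Timd4 (94 cells) and 407 without, a ratio of 1.47 (1.31 to 1.65). In the steady-state library it was 507 with Timd4 (454 cells) and 593 without, a ratio of 0.854 (0.820 to 0.890). The intervals lie on different sides of 1 and cover counting error only, and the difference between the libraries was not tested. The share of cells with a call went the other way in the macrophage and DC library, with 2 of 94 cells (2.13%) with Timd4 and 37 of 590 cells (6.27%) without, a ratio of 0.339 (0.0396 to 1.32). The median depth of the cells with Timd4 was 5876.5 UMIs in the first and 10540.5 in the second. In the macrophage and DC library the 2 called cells with Timd4 each had both calls. Macrophages with both calls there had S members at 3009 CPM of thinned UMIs, and uncalled ones at 281. UMIs of the same cell are not independent, and how much of the S sum came from these 2 cells was not tested.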

How the results depend on the processing

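No paired analysis was possible because each group is 1 library. Values here are log2 ratios unless given in percent. Of 121 alternative values for the main results, 104 moved by less than the counting interval. The shares themselves were less stable, and 83 of their alternative values left the interval while 82 stayed in it. Over the alternatives the share with a call ran from 7.73 to 19.6% in steady-state macrophages and from 3.78 to 11.1% at day 11. It ran from 2.78 to 12.8% in wild-type macrophages and from 11.3 to 22.4% in DCs. For shares with a call, the day 11 to steady-state ratio (-0.80) kept its direction in 11 of 11 alternatives, from -1.03 to -0.73. Thinning to 5000 UMIs gave -0.62 for wild-type against steady-state macrophages (-1.14) and 0.81 for DCs against macrophages (1.65). Thinning to 2000 gave -0.19 for Ccr2 at steady state (0.27). A status of 2 UMIs gave -1.79 for Timd4 at steady state (-0.84) and -3.01 for Gpnmb at day 11 (-1.55). Timd4 at day 11 (-0.42) was above 0 in 1 of 11 alternatives, where the 20 redraws count as 1 by their mean. Singly, only 6 of these 20 redraws were below 0, with a range of -0.91 to 0.49, so its direction depended on the draw.

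Without Pcna, Dut and Slbp the S to G2/M ratio was -0.96 at steady state (-0.23), -0.72 at day 11 (0.01), -0.89 in DCs (-0.20) and, reversed, -0.54 in wild-type macrophages (0.31). With each cell weighted equally it was -0.13 at steady state, 0.24 at day 11 and 0.69 in wild-type macrophages, and the day 11 median of G2/M members was -0.78 (-0.65). The medians here are over the 16 G2/M and 11 S members with at least 20 CPM, not over all members. Centred on all genes, the day 11 medians were -0.33 for S (-0.39) and -0.58 for G2/M members. Against wild-type macrophages they reversed to 0.025 and 0.47. The cause of these shifts was not tested. Calls from the G2/M list alone, an S limit of 6 genes and the 20 draws were chosen after seeing the data. The 0 of 129 cells with Timd4 and a G2/M call at day 11, from the first draw only, allow a share of up to 2.82%.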
